A study of Mus musculus with 6 samples.

Results

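The genes of S phase and DNA replication were followed in DC2.4, an immature mouse dendritic cell line grown in culture. They are 43 genes taken by symbol from the 54532 genes of the deposited count table, and each symbol had a row of its own there. Messenger RNA libraries were compared between 3 samples of cells given the empty pTT5 vector and 3 samples of cells given the same vector built to overexpress Vdbp, the vitamin D-binding protein whose mouse gene is Gc. Both groups were passaged 48 h after transfection and then kept under selection, so vector and selection were common to them. The labels describe the line both as DC2.4 and as dendritic cells from bone marrow, and nothing in them states that the 3 samples within a group were independent cultures.

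The libraries held 15563800 to 16710975 counts each. Gc itself (ENSMUSG00000035540, on the minus strand of chromosome 5 from 89417522 to 89457898) was at 0 counts in each of the 6 libraries, which allows up to 0.177 to 0.192 CPM (counts scaled to a common library size) per library by counting error. The groups are therefore named by their labels throughout, as empty-vector libraries and libraries labelled Vdbp. Of 15 dendritic cell markers 7 were above 1 CPM in both groups (Itgax, Zbtb46, Cd74, Irf8, Cd86, Cd80 and Cd40), with a summed level of 419 to 451 CPM in the empty-vector libraries and 452 to 488 CPM in those labelled Vdbp. The defining markers H2-Aa, H2-Ab1, Ciita, Flt3, Batf3, Ccr7, Xcr1 and Clec9a were below 1 CPM. Leukocyte and myeloid markers were present (7 of 8 above 1 CPM, summed 4624 to 5209 against 4377 to 4718 CPM), as were all 6 markers of cycling cells (1274 to 1490 against 1113 to 1422 CPM). Markers of T cells (0 of 5, Cd3e, Cd3g and Cd8a at 0 counts, summed 0 to 0.0603 against 0 to 0.0597 CPM) and fibroblasts (1 of 5, Dcn, with Col1a2 and Col3a1 at 0, 1.53 to 2.24 against 1.119 to 2.17 CPM) were at or near 0. Of 5 endothelial markers Vwf alone was above 1 CPM (summed 42.2 to 44.2 against 43.3 to 57.1 CPM).

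Chromosomal DNA is copied in ordered steps. In G1 the origin recognition complex, Cdc6 and Cdt1 load the ring of MCM proteins onto origins, and in S phase Cdc45 and the GINS complex turn that ring into the active helicase. DNA polymerase alpha with primase starts each strand, the clamp loader RFC places the sliding clamp Pcna, RPA covers the single strands, and Fen1 and Lig1 finish the lagging strand. Many of the genes are transcribed in late G1 under E2F factors, so that their RNA is abundant in dividing cells and low in resting ones.

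E2F letters are shown here in the promoters of 3 subunits of the MCM ring, which were chosen after their values were seen: Mcm5 had the most positive difference of the 43 genes, Mcm6 had a lower mean in the libraries labelled Vdbp, and Mcm3 had the highest level of the ring. Each sequence is the RefSeq window (GRCm38.p6) from 250 bases before to 50 bases after the start of transcription, 5′ to 3′ on the gene's own strand. Capitals mark the letters TTTCCCGC, TTTCGCGC, TTTGCCGC or TTTGGCGC, read on either strand. The Mcm5 window is chr8:75109259-75109558 (plus strand), the Mcm6 window is chr1:128359656-128359955 (minus strand) and the Mcm3 window is chr1:20820263-20820562 (minus strand).
Mcm5: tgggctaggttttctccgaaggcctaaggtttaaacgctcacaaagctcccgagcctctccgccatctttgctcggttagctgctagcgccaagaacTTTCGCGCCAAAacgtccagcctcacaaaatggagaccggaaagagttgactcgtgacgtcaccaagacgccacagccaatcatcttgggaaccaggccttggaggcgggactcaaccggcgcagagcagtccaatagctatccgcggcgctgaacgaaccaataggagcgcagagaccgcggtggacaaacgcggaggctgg
Mcm6: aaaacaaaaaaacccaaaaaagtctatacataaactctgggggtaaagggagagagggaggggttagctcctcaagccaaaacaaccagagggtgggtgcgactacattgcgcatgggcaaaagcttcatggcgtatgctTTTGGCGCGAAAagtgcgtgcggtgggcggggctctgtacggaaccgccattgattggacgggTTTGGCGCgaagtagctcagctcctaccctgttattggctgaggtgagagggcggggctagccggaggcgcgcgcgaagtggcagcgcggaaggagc
Mcm3: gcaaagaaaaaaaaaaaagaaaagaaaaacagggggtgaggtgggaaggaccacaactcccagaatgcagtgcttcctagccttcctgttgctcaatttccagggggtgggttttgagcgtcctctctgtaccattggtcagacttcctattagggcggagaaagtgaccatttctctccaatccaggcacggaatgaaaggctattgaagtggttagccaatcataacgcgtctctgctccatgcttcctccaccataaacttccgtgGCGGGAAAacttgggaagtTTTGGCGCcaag
In Mcm5 the capitals are a pair of overlapping matches, one on each strand, and Mcm6 carries such a pair and 1 further match. Mcm3 has both of its matches after the start of transcription. Not every ring subunit carries these letters: the Mcm2 window has 0 matches, and Mcm7 has a window with 0 and another with 2.

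RefSeq windows were found for 35 of the 43 genes (all but Ccne2, Prim2, Gins4, Mcm4, Pole, Gins2, Gins1 and Rfc2). The E2F letters stood in the windows of 13 of these 35 genes (37.1%), against 2.61% of 27025 mouse genes with a window. They stood in 17 of 47 further replication genes (36.2%) described below. The genes' windows were also richer in G and C (61.3% against 52.7%), and the GC box GGGCGG, read on both strands, stood in 77.1% of the genes against 38.2% of all. The CCAAT letters stood in 62.9% against 41.1%, and the letters TTTGAA of the cell cycle homology region in 11.4% against 20.2%. These are matches of letters, and binding was not measured here.

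All 43 genes were expressed in every library, with 77 to 6512 counts per gene and library. On the scale of the authors' FPKM (fragments scaled by gene length and library), which allows levels of different genes to be compared, the mean over 6 libraries ran from 3.11 for Fen1 to 121 for Rrm2, with a median of 19.99. After Rrm2, the small subunit of ribonucleotide reductase, came Pcna at 118 FPKM, Mcm3 at 70.8, the transcription factor E2f1 at 69.96, Mcm6 at 69.6 and the licensing factor Cdt1 at 66.7. At the low end were Prim2 (5.85), Gins3 (5.78), Orc1 (5.76) and Pola1 (4.84). The level and rank of Fen1 are uncertain, since 76.7% of the 50-base windows of its transcripts also occur in other genes' transcripts. Most neighbours in this order could not be separated: the ranges over 6 libraries overlapped in 39 of 42 neighbouring pairs, with gaps after Pcna, Rpa1 and Cdc6.

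Subunits that work in 1 complex were not equally abundant as RNA. Within the MCM ring the highest mean FPKM (Mcm3) was 1.99 times the lowest (Mcm2), a narrow range that also held for RPA (1.89 times). The spread was wider in the clamp loader RFC (3.33 times), ribonucleotide reductase (3.95 times), DNA polymerase alpha with primase (4.94 times) and GINS (6.54 times, from 37.8 FPKM for Gins4 to 5.78 for Gins3). The gene length of the table, by which FPKM is divided, was over 1.5 times the longest annotated transcript for 14 of the genes (2.43 times for Prim2, 2.01 times for Rrm1, 1.99 times for Mcm2 and 1.65 times for Pola1), which lowers their FPKM. Mcm2, Pola1, Rrm1 and Rpa3 (1.67 times) are the lowest genes of their complexes on this scale, so these ratios rest in part on the length used.

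**Figure D1:**
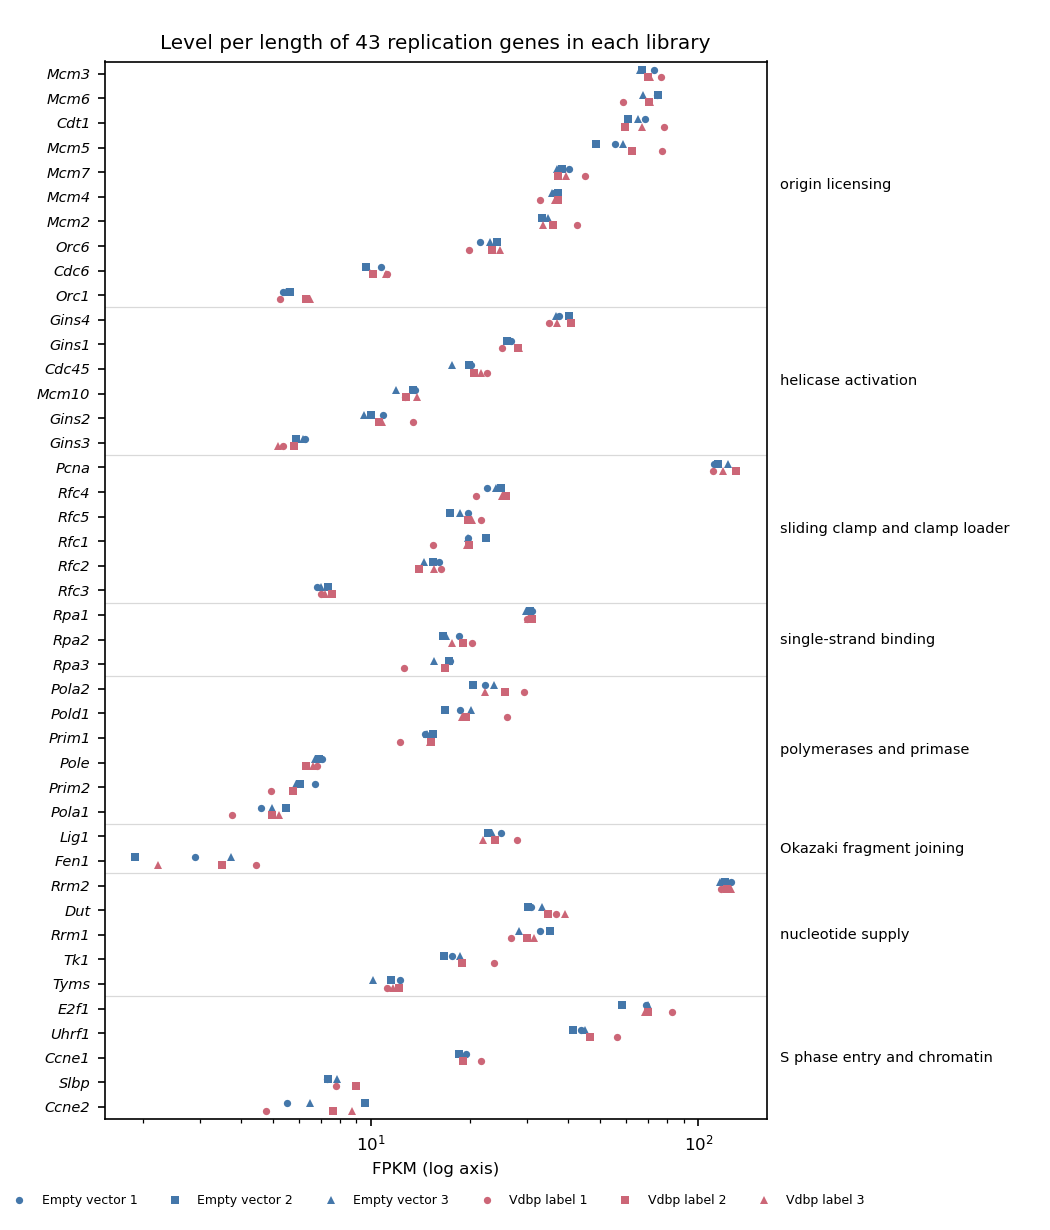
Level of each of the 43 replication genes in the 6 libraries as FPKM on a log axis, ordered by role, with points for single libraries and colours for the groups. Differences between genes, from Rrm2 at a mean of 121 FPKM to Fen1 at 3.11, are far wider than those between the groups of any 1 gene. The level of Fen1 is uncertain because most of its sequence is shared with other transcripts.

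The comparison of the groups asked whether cells labelled as overexpressing Vdbp differ in their replication genes. None of the 43 genes changed past the threshold in edgeR's quasi-likelihood test (adjusted p 0.781 to 0.993, Benjamini-Hochberg over 12844 tested genes), against a background of 0 percent of all tested genes called. At an unadjusted p under 0.05 there were 2 of the 43 genes (Mcm5 and Dut), where 5.35% of all tested genes reached it, and DESeq2 and limma-voom also called 0 of the 43 with 2 at an unadjusted p under 0.05. The 43 genes gave 0 calls under all 15 alternatives tried, where the share of all tested genes called was 0.369 percent with no filter on low counts, 0.168 percent without empty-vector replicate 3, 0.0856 percent by DESeq2, 0.0156 percent with the correction for GC content described below, 0.0155 percent without a pair of libraries named below, 0.00764 percent without empty-vector replicate 2 and 0 percent in the others. The median log2 fold change, libraries labelled Vdbp minus empty vector, was 0.04 for the 43 genes and -0.01 for all tested genes. The median was 0.09 without empty-vector replicate 1. Positive values were found for 28 of the 43 genes (65.1%, against 48.7% of all tested genes).

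The differences were also bounded closely. The log2 fold changes lay between -0.18 and 0.31, with a median size of 0.11 (0.13 for all tested genes) and a median SE of 0.11 (0.14 for all). The 95% interval stayed within a 1.5-fold difference in either direction for 42 of the 43 genes, against 70.7% of all tested genes. Fen1 was the exception, and its interval stayed within 2-fold. This is a statement on single genes at the depth of these 6 libraries, and the intervals are not adjusted for the number of genes.

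**Figure D2:**
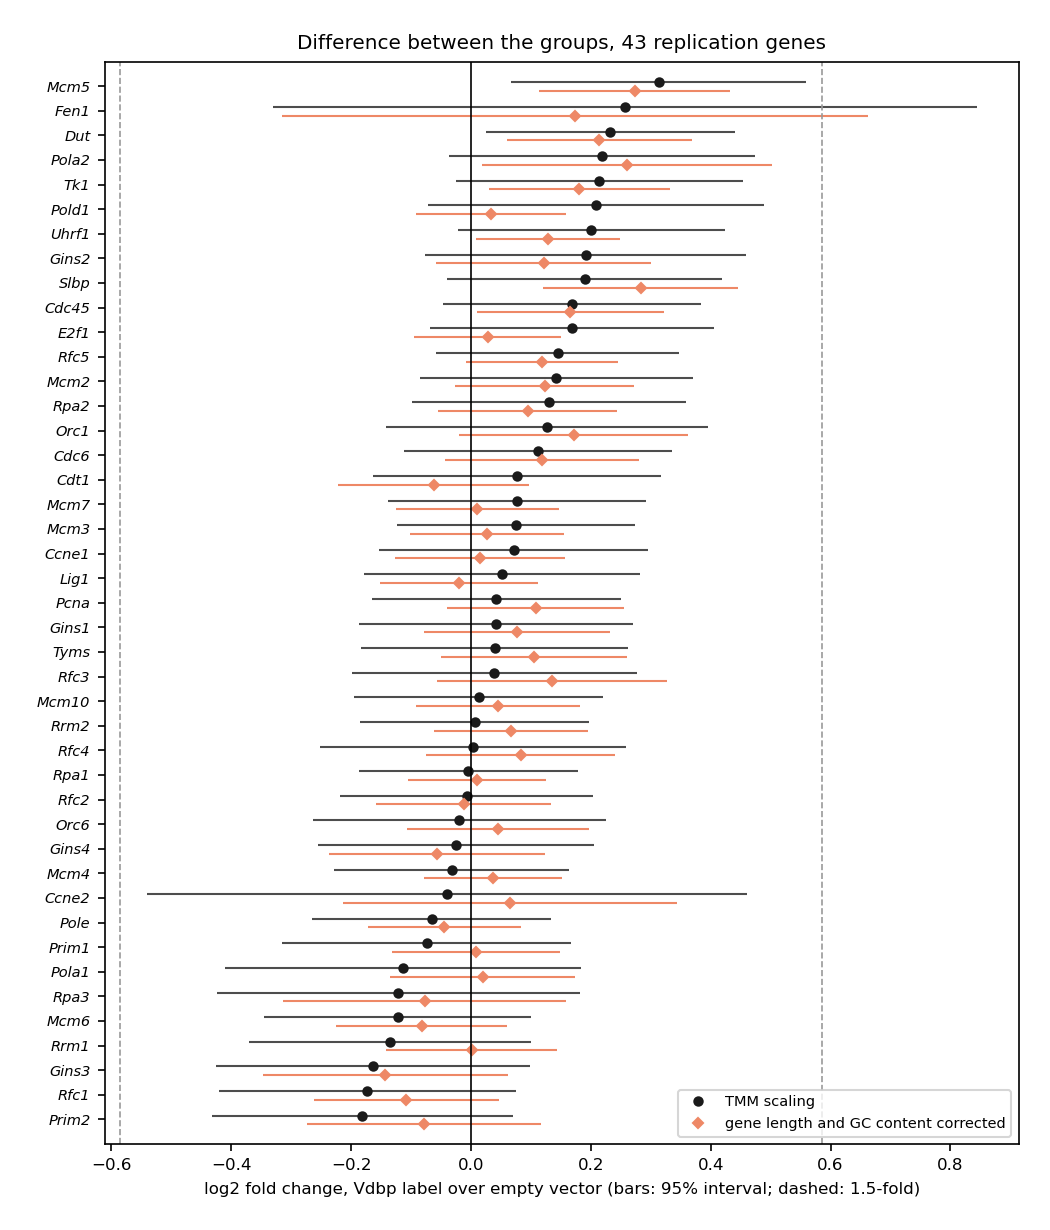
Log2 fold change of each gene (libraries labelled Vdbp minus empty vector, 3 libraries each) with its 95% interval from edgeR's quasi-likelihood fit, ordered by size, in black with TMM scaling and in orange after the correction of length and GC content described below, with dashed lines at 1.5-fold. With TMM scaling 42 of 43 intervals stay within 1.5-fold and those of Mcm5 and Dut lie above 0, and neither gene passes the adjusted threshold.

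The values of the groups did not overlap for 8 of the 43 genes (18.6%), where the background was 10.9% of all tested genes. Higher in the libraries labelled Vdbp were Mcm5, Cdc45, Rfc5, Tk1, Dut and Uhrf1 (background 5.26%), and lower were Gins3 and Prim2 (background 5.61%). None of them passed the adjusted test. Leaving out empty-vector replicate 1 gave 13 such genes, empty-vector replicate 3 gave 15 and Vdbp replicate 1 gave 13, with backgrounds of 18.6%, 28.5% and 18.2% at the smaller group size. Leaving out empty-vector replicate 2, Vdbp replicate 2 or Vdbp replicate 3 gave 9, 10 and 12 (backgrounds 14.8%, 19.5% and 28.1%).

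Origin licensing was represented by 10 genes, of which 7 had a positive and 3 a negative log2 fold change (median 0.08). Mcm5 (ENSMUSG00000005410, chromosome 8, 75109569 to 75128439, plus strand), a subunit of the MCM ring, measured 223, 197 and 236 CPM in empty-vector replicates 1, 2 and 3. The libraries labelled Vdbp gave 312, 251 and 251 CPM. All of the latter were above all of the former, and replicate 1 was the highest of the 6. The means were 219 ± 19.9 and 272 ± 35.4 CPM (SD, n = 3), a log2 fold change of 0.31 (SE 0.11, 95% interval 0.07 to 0.56, edgeR adjusted p = 0.781), or 1.24-fold. Leaving out 1 library at a time moved it between 0.20 (without Vdbp replicate 1) and 0.37, and without both that library and empty-vector replicate 2 it was 0.13.

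Mcm3, the subunit with the highest FPKM, had 276, 255 and 250 CPM in the empty-vector libraries and 291, 264 and 267 CPM in those labelled Vdbp. The groups overlapped, and the log2 fold change was 0.08 (SE 0.09). Of the other ring subunits, Mcm2 had a log2 fold change of 0.14, Mcm7 of 0.08, Mcm4 of -0.03 and Mcm6 of -0.12. The loading factors Cdt1 (0.08), Cdc6 (0.11), Orc1 (0.13) and Orc6 (-0.02), which place the ring on DNA, stayed in the same range. The 6 subunits of 1 ring thus spanned both signs, each with an SE of 0.09 to 0.11. Of the 50-base windows of the Mcm7 transcripts, 23.3% also occur in other transcripts (Ap4m1 and Cops6 overlap it on the opposite strand), so that counts may be shared there.

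Helicase activation was represented by 6 genes, with 4 positive and 2 negative values (median 0.03). Gins3 (ENSMUSG00000031669, chromosome 8, 95633453 to 95645060, plus strand), a subunit of the GINS ring that joins the helicase, had 16.97, 16.1 and 16.9 CPM in the empty-vector libraries. It had 14.7, 15.8 and 14.1 CPM in the libraries labelled Vdbp. These were all lower, by a small margin against the spread: the log2 fold change was -0.16 (SE 0.12, edgeR adjusted p = 0.781). Gins4, the GINS subunit with the highest FPKM, had 50.6, 54.9 and 49.6 CPM against 47.6, 54.9 and 50.02 CPM, with complete overlap of the groups.

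Cdc45, which completes the helicase with GINS, had 70.75, 70.5 and 62.0 CPM in the empty-vector libraries and 80.0, 72.5 and 76.0 CPM in those labelled Vdbp. The ranges were separated by a narrow gap, and the log2 fold change was 0.17 (SE 0.10). Mcm10 (0.01) and Gins1 (0.04) were near 0. The value of Gins2 (0.19, SE 0.12) is uncertain, since 65.4% of its 50-base windows also occur in transcripts of Gse1, which had 7095 counts over the 6 libraries where Gins2 had 4374.

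The sliding clamp and its loader were represented by 6 genes, with 4 positive and 2 negative values (median 0.02). Pcna, the clamp that holds polymerases on DNA and a common marker of proliferation, had 269, 278 and 296 CPM in the empty-vector libraries. It had 268, 314 and 286 CPM in those labelled Vdbp. The groups overlapped (log2 fold change 0.04, SE 0.10), and 19.1% of its windows are shared with the pseudogene Pcna-ps2. Rfc1 (ENSMUSG00000029191, chromosome 5, 65261850 to 65335670, minus strand), the large subunit of the clamp loader, had 119, 137 and 120 CPM against 93.9, 120 and 119 CPM. Vdbp replicate 1 was the lowest of the 6 and the other libraries labelled Vdbp were level with empty-vector replicates 1 and 3, with a log2 fold change of -0.17 (SE 0.11), which was -0.06 without Vdbp replicate 1.

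The small subunits of the clamp loader are the other members of that complex. Rfc5 had 92.0, 82.5 and 87.5 CPM in the empty-vector libraries and 102, 92.5 and 95.3 CPM in those labelled Vdbp, ranges that just missed each other, with a log2 fold change of 0.14 (SE 0.09). Rfc2 (-0.01), Rfc3 (0.04) and Rfc4 (0.00) were near 0. Whether Rfc1 and Rfc5 differ from each other in their response was not tested.

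RPA, the protein that covers single-stranded DNA, gave the steadiest gene of the 43. Rpa1, its large subunit, had 173, 172 and 166 CPM in the empty-vector libraries and 169, 173 and 168 CPM in those labelled Vdbp. Its coefficient of variation over the 6 libraries was 1.78%, where the median of the 43 genes was 8.42%. Rpa2 came to 0.13 on the log2 scale (SE 0.10) and Rpa3 to -0.12 (SE 0.14).

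Polymerases and primase were represented by 6 genes, with 2 positive and 4 negative values (median -0.07). Prim2 (ENSMUSG00000026134, chromosome 1, 33453810 to 33669795, minus strand), the large primase subunit, had the most negative value. It measured 39.95, 36.4 and 34.96 CPM in the empty-vector libraries and 29.6, 34.4 and 34.2 CPM in the libraries labelled Vdbp. The groups were apart by less than 1 CPM and Vdbp replicate 1 was the lowest, with means of 37.1 ± 2.57 and 32.7 ± 2.73 CPM (SD, n = 3) and a log2 fold change of -0.18 (SE 0.11, 95% interval -0.43 to 0.07, edgeR adjusted p = 0.781).

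Pola2, the regulatory subunit of DNA polymerase alpha (ENSMUSG00000024833, chromosome 19, 5940543 to 5964206, minus strand), had 63.9, 59.3 and 68.3 CPM against 84.6, 73.9 and 64.3 CPM. Its groups overlapped through Vdbp replicate 3, and the log2 fold change was 0.22 (SE 0.12), or 0.12 without Vdbp replicate 1. The catalytic subunits were Pola1 with -0.11 (SE 0.14), Pold1 of polymerase delta with 0.21 (SE 0.13) and Pole of polymerase epsilon with -0.07 (SE 0.09). Prim1, the catalytic primase subunit, had -0.07 (SE 0.11). No subunit of the polymerase alpha and primase assembly passed the test, and their values had both signs.

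On the lagging strand, Lig1, the ligase that seals Okazaki fragments, had 107, 98.3 and 100.5 CPM in the empty-vector libraries and 120.0, 102 and 94.4 CPM in those labelled Vdbp, with overlap (log2 fold change 0.05, SE 0.11). Fen1 (ENSMUSG00000024742, chromosome 19, 10199132 to 10204169, minus strand), the nuclease that trims their 5′ flaps, had 7.01, 4.65 and 9.05 CPM against 10.8, 8.49 and 5.43 CPM. It was the most variable of the 43 genes, with a coefficient of variation of 30.7% and a log2 fold change of 0.26 (SE 0.27, 95% interval -0.33 to 0.84). Its value is uncertain, since 76.7% of its 50-base windows also occur in Tmem258 or Gm10143 on the opposite strand, and whether the libraries kept the strand is not stated in the labels. Tmem258 had 3667 counts over the 6 libraries where Fen1 had 745.

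Nucleotide supply was represented by 5 genes, with 4 positive values and 1 negative (median 0.04). Dut (ENSMUSG00000027203, chromosome 2, 125247190 to 125258608, plus strand), which removes dUTP and so keeps uracil out of DNA, had 74.1, 73.6 and 80.5 CPM in the empty-vector libraries. It had 89.4, 83.9 and 94.8 CPM in the libraries labelled Vdbp. All of these were higher, with means of 76.1 ± 3.86 and 89.4 ± 5.45 CPM (SD, n = 3) and a log2 fold change of 0.23 (SE 0.10, 95% interval 0.03 to 0.44, edgeR adjusted p = 0.781).

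Rrm2 and Rrm1 form ribonucleotide reductase, which makes deoxyribonucleotides. Rrm2 had 349, 339 and 323 CPM in the empty-vector libraries and 327, 339 and 350 CPM in those labelled Vdbp, with full overlap (log2 fold change 0.01, SE 0.09). Rrm1 (ENSMUSG00000030978, chromosome 7, 102441695 to 102469771, plus strand) had 362, 393 and 313 CPM against 296, 330 and 347 CPM, with overlap and a log2 fold change of -0.13 (SE 0.11). Tk1, the thymidine kinase of S phase, had 92.1, 87.9 and 97.2 CPM against 124, 98.4 and 99.0 CPM. Its groups were apart by little more than 1 CPM, most of the difference lay in Vdbp replicate 1, and the log2 fold change was 0.21 (SE 0.11). Tyms, which makes thymidylate, had a log2 fold change of 0.04 (SE 0.10).

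S phase entry and chromatin genes numbered 5, with 4 positive values and 1 negative (median 0.17). E2f1, the transcription factor that drives many of the other genes, had 219, 186 and 222 CPM in the empty-vector libraries and 264, 222 and 218 CPM in those labelled Vdbp. The groups overlapped, with a log2 fold change of 0.17 (SE 0.11). Uhrf1, which guides upkeep of DNA methylation at the fork, had 186, 178 and 192 CPM against 243, 199 and 199 CPM. These ranges did not overlap, with a log2 fold change of 0.20 (SE 0.10).

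Slbp (ENSMUSG00000004642, chromosome 5, 33634952 to 33652574, minus strand), which binds the stem-loop of histone messenger RNAs, had 44.4, 45.4 and 48.0 CPM in the empty-vector libraries and 47.7, 54.6 and 54.8 CPM in those labelled Vdbp. Vdbp replicate 1 fell just below empty-vector replicate 3, and the log2 fold change was 0.19 (SE 0.11). The cyclins that partner Cdk2 at the start of S phase were Ccne1, with 0.07 (SE 0.10), and Ccne2, with -0.04 (SE 0.23). Ccne2 had the largest coefficient of variation after Fen1 (26.3%), and its values ran from 16.74 CPM in Vdbp replicate 1 to 33.9 CPM in empty-vector replicate 2.

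**Figure D3:**
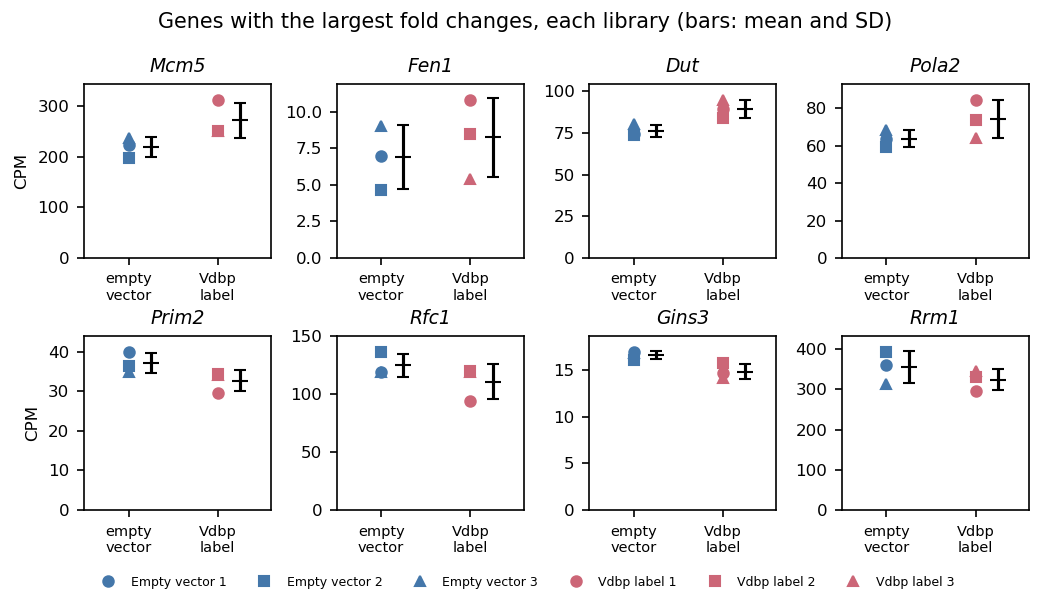
CPM in each of the 6 libraries for the 4 genes with the most positive and the 4 with the most negative log2 fold change, with the group mean and SD (n = 3). Mcm5, Dut, Gins3 and Prim2 show no overlap between the groups, and Vdbp replicate 1 is the highest library for Mcm5, Fen1 and Pola2 and the lowest for Rfc1, Prim2 and Rrm1.

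Vdbp replicate 1 stood apart from the other libraries in these genes. It was the highest of the 6 libraries for 19 genes and the lowest for 15, so that it was at an end for 34 of the 43. This count was not set against the share over all tested genes, so it does not mark the 43 genes out. Each gene's deviation from its mean log2 CPM had an SD over the 43 genes of 0.24 in that library and of 0.17 in empty-vector replicate 2, against 0.08 to 0.11 in the other 4. The medians of the deviations were small in all libraries, at 0.00, -0.03 and -0.04 for empty-vector replicates 1, 2 and 3 and -0.01, 0.02 and 0.02 for those labelled Vdbp. These 2 libraries also had the lowest and highest scores on the first principal component over all tested genes. Without both, 18 of the 43 genes showed no overlap, against 32.5% of all tested genes, and none passed the threshold.

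The deviations moved with base composition, the share of G and C in a gene's longest transcript. Its median was 48.9% over the 43 genes, from 34.2% in Rpa3 to 61.0% in Pold1, and 49.5% over all tested genes. Across the 43 genes, which share the libraries and their depth, Spearman's rho between deviation and GC content was 0.86 in Vdbp replicate 1 and -0.74 in empty-vector replicate 2. It was 0.73 and -0.62 over all tested genes. Of the 21 genes with more GC than the median gene, 20 were above their mean in Vdbp replicate 1, and of the other 22 genes only 1 was. In empty-vector replicate 2 the counts were 3 of 21 and 17 of 22. The other libraries had rho of -0.07 and -0.15 (empty-vector replicates 1 and 3) and of -0.46 and -0.55 (Vdbp replicates 2 and 3). Over all tested genes rho was -0.07 and 0.07 in these empty-vector replicates. It was -0.03 and -0.40 in Vdbp replicates 2 and 3, so the relation in Vdbp replicate 2 was not seen over all tested genes.

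**Figure D4:**
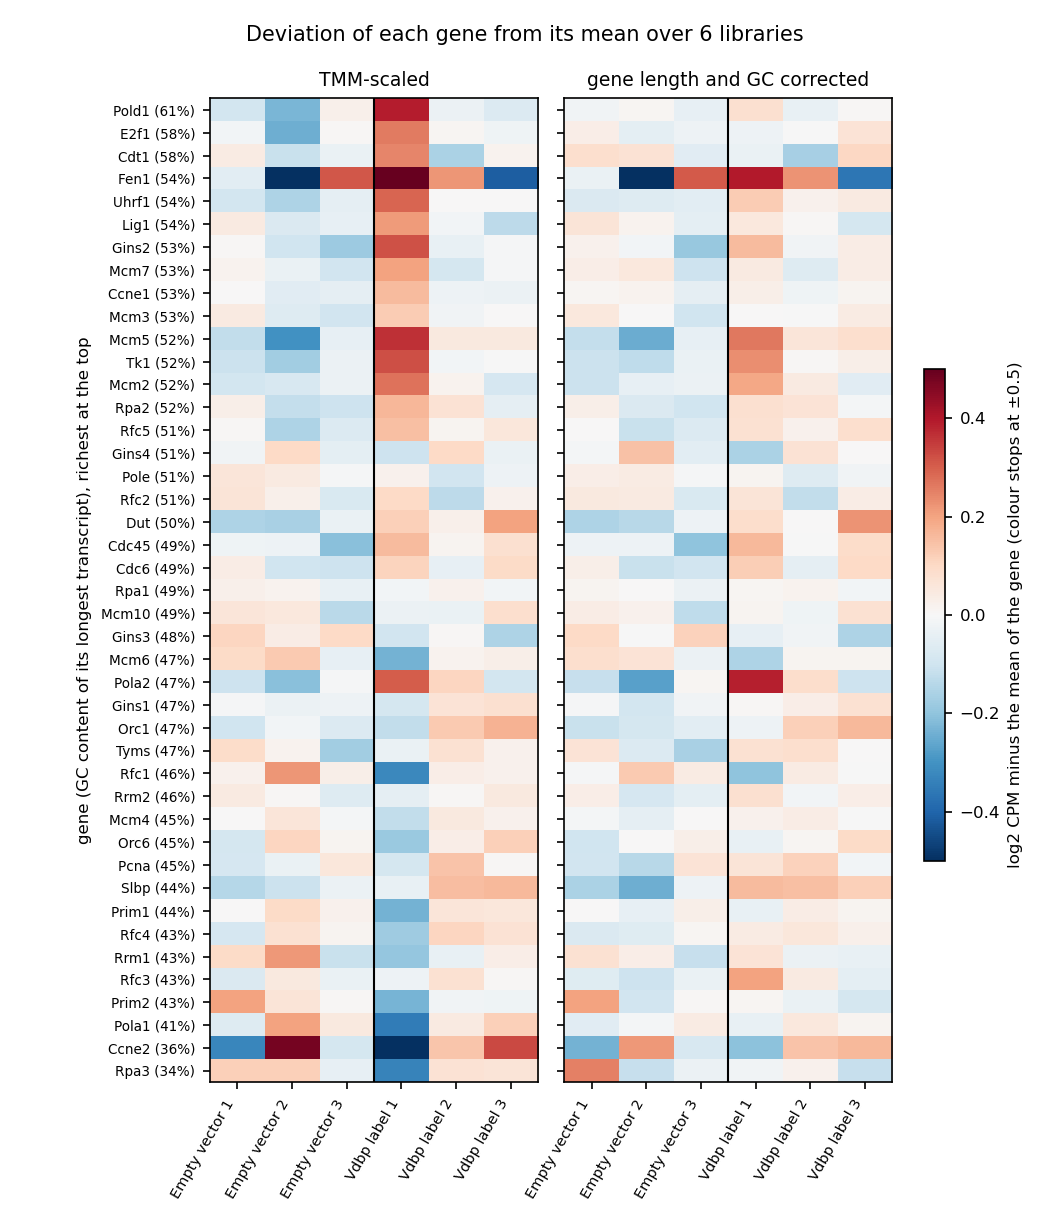
Colours give the deviation of each gene (rows, richest in GC at the top) from its mean log2 CPM in each of the 6 libraries (columns), red above and blue below the mean, with TMM scaling on the left and with gene length and GC content corrected on the right. On the left, Vdbp replicate 1 passes from red at the top to blue at the bottom (rho 0.86) and empty-vector replicate 2 the other way (rho -0.74); on the right the SD over genes is 0.13 and 0.12 in these libraries.

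The group differences carried the same relation. Spearman's rho between the log2 fold change and GC content was 0.64 over the 43 genes and 0.51 over 12834 tested genes with a GC value, and genes share the libraries and are not independent replicates. Each library was then corrected by removing its smooth dependence on GC content and gene length, after which rho was 0.10 over the 43 genes and 0.03 over all. The fall of rho is built into the correction, which also removes any group difference that follows GC content or length. The SD of the deviations in Vdbp replicate 1 was then 0.13, and in empty-vector replicate 2 it was 0.12.

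With that correction, 0 of the 43 genes passed the threshold (smallest edgeR adjusted p 0.482, over all alternatives 0.328 to 0.9998), against 0.0156 percent of all tested genes. At an unadjusted p under 0.05 there were 7 (Mcm5, Cdc45, Pola2, Tk1, Dut, Slbp and Uhrf1), against a background of 8.89%. The median log2 fold change was 0.05, with 33 positive (76.7%, against 49.8% of all tested genes) and 10 negative values, and 9 genes changed sign. Some of the differences kept their size: Mcm5 had 0.27, Dut 0.21, Pola2 0.26, Gins3 -0.14 and Cdc45 0.17. Others were near 0, among them E2f1 at 0.03, Pold1 at 0.03, which is the gene richest in GC, and Rrm1 at 0.00. Prim2 had -0.08 and Rfc1 -0.11.

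Slbp had the most positive value after the correction, 0.28. Its corrected levels were 43.9, 41.3 and 48.1 CPM in the empty-vector libraries and 54.7, 54.3 and 53.2 CPM in those labelled Vdbp. The groups did not overlap on this scale, where Vdbp replicate 1 was the highest of the 6. In all, 11 of the 43 genes (25.6%) showed no overlap after the correction, against 13.3% of all tested genes. Of these, 10 were higher in the libraries labelled Vdbp (Orc1, Mcm5, Cdc45, Gins1, Rfc4, Rfc5, Tk1, Dut, Slbp and Uhrf1, background 6.26%) and Gins3 was lower (background 7.01%), and 7 were among the 8 without overlap before it.

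**Figure D5:**
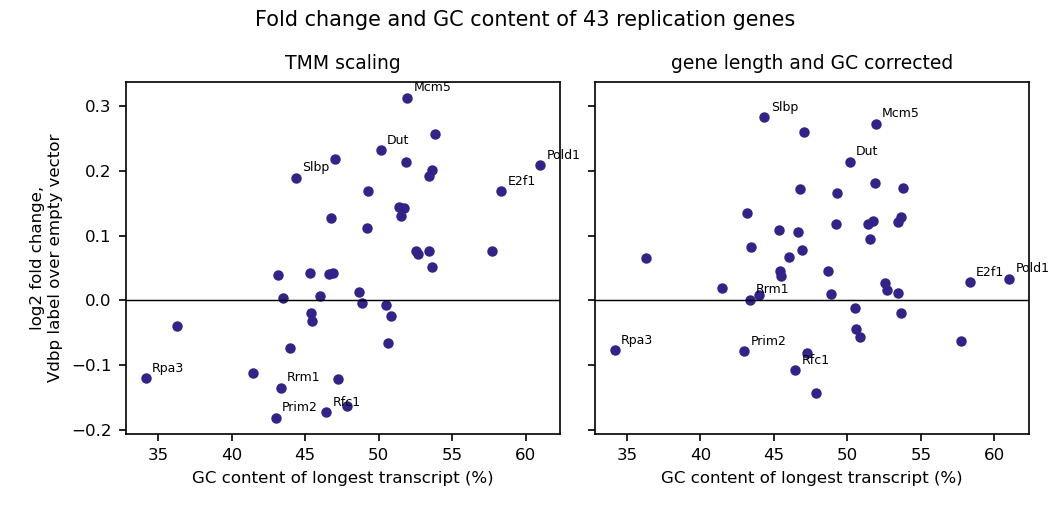
Log2 fold change of the 43 genes (libraries labelled Vdbp minus empty vector) against GC content in percent, before (left) and after (right) the correction of length and GC content. The relation has rho 0.64 before and 0.10 after, a fall built into the correction. Mcm5 is at 0.31 before and 0.27 after, and Pold1, the gene farthest to the right, at 0.21 before and 0.03 after.

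Summed over the 43 genes, replication transcripts made up 0.487%, 0.482% and 0.482% of all counts in the empty-vector libraries and 0.5006%, 0.5002% and 0.499% in those labelled Vdbp. On this unscaled share the groups did not overlap, with means of 0.483 ± 0.00318% and 0.5001 ± 0.000573% (SD, n = 3). On the TMM scale the sums were 4903, 4833 and 4760 CPM against 5143, 4940.3 and 4966 CPM, and after the correction 4907, 4799 and 4759 against 5101, 4937 and 4992 CPM, again without overlap. The sum is weighted toward the abundant genes and gets no test, since the genes were chosen as a list. The median deviation of the genes from their mean log2 CPM, which weights them equally, overlapped between the groups with TMM scaling. It was 0.00 in empty-vector replicate 1 and -0.01 in Vdbp replicate 1. After the correction it did not overlap, with at most 0.002 in empty-vector libraries and at least 0.015 in those labelled Vdbp. For the 59 further replication genes described below, the same median overlapped between the groups with TMM scaling and after the correction. Its corrected values were 0.018, 0.001 and -0.020 in empty-vector replicates 1, 2 and 3. They were -0.021, -0.004 and 0.022 in Vdbp replicates 1, 2 and 3. In bulk RNA a different share of cells in S phase and a different amount of RNA per such cell cannot be told apart.

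A further 59 genes of replication and the G1/S transition were listed for comparison, and 59 were tested. None passed the threshold (0 by DESeq2 and by limma-voom), and 0 had an unadjusted p under 0.05 in edgeR's test. Their median log2 fold change was -0.03 (0.01 after the correction), with 27 positive and 32 negative values, and 3 of them (5.08%, background 10.9%) had groups without overlap, the cyclin Ccnd1, the repressor E2f4 and the histone chaperone Asf1b, all higher in the libraries labelled Vdbp. With the correction there were 7 (11.9%, background 13.3%). Of these Ccnd1, Asf1b, Dscc1, Cdk4 and Tfdp1 were higher and Pold3 and Pold4 lower, and E2f4, at -0.02, then overlapped. Whether the 43 genes differ from these 59 was not tested. By type, values before the correction were positive for 5 of 15 other licensing and firing factors and 8 of 19 other fork and polymerase factors. They were positive for 4 of 6 genes of nucleosome assembly and DNA methylation upkeep, 1 of 5 other nucleotide enzymes and 9 of 14 G1/S regulators. With the correction the positive values numbered 8, 11, 4, 2 and 9 in the same order. In all, 34 of the 59 were then positive and 25 negative (57.6% positive, against 49.8% of all tested genes). An unadjusted p under 0.05 in edgeR's test was then reached by 2 of the 59, against a background of 8.89%.

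The most positive value of these 59 genes was that of Rnaseh2a, the catalytic subunit of the nuclease that removes ribonucleotides from DNA, with 67.2, 53.9 and 70.7 CPM in the empty-vector libraries and 91.1, 65.3 and 70.1 CPM in those labelled Vdbp (log2 fold change 0.24, SE 0.14). Dscc1, part of an alternative clamp loader, had 5.53, 8.09 and 6.39 CPM against 6.16, 8.72 and 8.30 CPM (0.21, SE 0.19). E2f2, an activating relative of E2f1, had 60.2, 57.1 and 67.9 CPM against 82.97, 69.6 and 61.5 CPM (0.21, SE 0.12). In all of them the groups overlapped. With length and GC content corrected, Rnaseh2a had 0.15, E2f2 0.09 and Dscc1 0.34, and the groups of Dscc1 then did not overlap.

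The most negative was Rb1, the retinoblastoma protein that restrains E2F factors, with 20.04, 22.6 and 17.5 CPM against 11.3, 15.5 and 21.3 CPM (log2 fold change -0.32, SE 0.20, edgeR adjusted p = 0.781). Rrm2b, the reductase subunit used outside S phase, had 19.8, 23.4 and 16.6 CPM against 12.4, 15.8 and 20.9 CPM (-0.28, SE 0.19). Mcm8, a relative of the ring subunits that acts in recombination, had 35.9, 40.5 and 34.0 CPM against 24.96, 32.4 and 36.9 CPM (-0.23, SE 0.15). For all of these Vdbp replicate 1 was the lowest library and the groups overlapped. With length and GC content corrected, the values were -0.21 for Rb1, -0.13 for Rrm2b and -0.16 for Mcm8, and without Vdbp replicate 1 those of Rb1 and Mcm8 were -0.12 and -0.08.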

How the data were processed

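Messenger RNA of 6 DC2.4 samples, 3 per group, was analysed. TRIzol was used for the RNA, per the labels. The submitters' processing notes name HISAT2 and StringTie. Versions, build, annotation and the program that counted reads are not given in the sources used. The deposited table holds raw counts per Ensembl gene with gene positions and lengths. The FPKM values the authors deposited equal the counts rescaled by gene length and library (largest relative gap 5.11e-15) and were used only to compare levels between genes. Gene positions are those of the table, and 42 of the 43 genes had the same start and end in GENCODE M21 on GRCm38.

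The test was that of edgeR 4.0.16 in R 4.3.3: filterByExpr (minimum count 10, minimum total 15, proportion 0.7), TMM scaling and a quasi-likelihood F test on group alone, two-sided, with Benjamini-Hochberg adjustment over 12844 genes and a threshold of 0.05. CPM are TMM-scaled, and log2 CPM carry a prior count of 2. The SE was taken from the fold change and F. Alternatives were total-count and RLE scaling, no filter, limma-voom (3.58.1), DESeq2 1.42.0, the replicate number as a block, an offset for the smooth dependence of each library on GC content and gene length (mgcv 1.9.3), both together, and leaving out libraries. Same-numbered libraries did not deviate together in every pair (correlations 0.14, 0.03 and -0.27), so the numbers were not taken as pairs. P-values measure the spread between these samples, which may be technical, and floors and intervals of counts cover counting error only.

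The genes, the lists and the tests were chosen with earlier results of these data known. Values per library are given for genes past the threshold, for the 4 genes with the largest log2 fold change in each direction, for the gene with the highest FPKM of each role, and for the 3 further replication genes with the largest log2 fold change in each direction with a mean of at least 5 CPM. Cdc45, Rfc5, Tk1, Uhrf1, Slbp and Ccne2 were added after their values were seen. Promoter windows are RefSeq's. The result of 1 marker list is not reported here.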

Additional observations from a re-analysis of the deposited data

How the results depend on the processing

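Sequence shared with other transcripts limits Fen1 and Gins2 most. The next largest shares of 50-base windows were those of Mcm7 (23.3%), Pcna (19.1%), Rfc2 (15.95%), Uhrf1 (15.4%), Ccne2 (14.4%) and Rfc5 (13.3%). None of the 43 genes and none of the 59 further genes passed the threshold under any of the 15 alternatives run. Over all tested genes 0 were called in the fit reported, 11 by DESeq2, 89 with no filter, 2 with the length and GC offset, 2 without empty-vector replicate 2 and Vdbp replicate 1 together, and 0 to 22 with 1 library left out (22 without empty-vector replicate 3). With the replicate number as a block 0 genes were called and the median of the 43 genes was 0.04. With 1 library left out the median of the 43 genes was 0.038 to 0.086 (0.086 without empty-vector replicate 1), that of the 59 was -0.07 to -0.00, and 9 to 15 of the 43 genes had groups without overlap, which were 18 (background 32.5%) without both libraries. The limma-voom fit and the fits with the block gave no such count.

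Of 21 genes named by rule, 11 kept their sign in all 15 alternatives (Mcm5, Dut, Pola2, Prim2, Rfc1, Gins3, Mcm3, Dscc1, E2f2, Rb1 and Mcm8), though without empty-vector replicate 2 and Vdbp replicate 1 together some were near 0, with -0.00060 for Rfc1, -0.016 for Mcm8, 0.031 for E2f2, -0.036 for Rb1 and 0.062 for Pola2. Log2 fold changes of the other sign were 0.00083 for Rpa1 with no filter. With the offset they were 0.0011 for Rrm1, 0.010 for Rpa1 and -0.020 for Lig1. With the block and the offset they were 0.0028, 0.010 and -0.021. Without both libraries they were -0.21 for Fen1, 8.5e-05 for Rrm1, 0.064 for Gins4, 0.0069 for Rpa1, -0.078 for Lig1, -0.0047 for E2f1, -0.031 for Rnaseh2a and 0.0077 for Rrm2b. With 1 library left out, Rpa1 ran from -0.023 to 0.0081, Gins4 from -0.082 to 0.025, Rrm2 from -0.022 to 0.034, Lig1 from -0.047 to 0.13 and Pcna from -0.020 to 0.098, while Fen1 ran from 0.016 to 0.50, Rrm1 from -0.22 to -0.057, E2f1 from 0.077 to 0.22, Rnaseh2a from 0.083 to 0.33 and Rrm2b from -0.49 to -0.12. The cause was not tested.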
